A study of Mus musculus with 12 samples.

Results

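The genes described here are the members of the NF-kB pathway in the mouse mammary tumour line 4T1, from the receptors and kinases that switch the pathway on to the genes it is known to induce. They were chosen as a list of 40 symbols, of which 39 were found among the 22880 features of the count table, and Cebpd was not analysed here. The 39 comprise 5 subunits, 6 members of the IKK and upstream kinase group, 10 receptors and adaptors, 9 inhibitors and feedback regulators and 9 response genes. RNA was sequenced in 4 groups of 3 libraries. The MYBup cells were transfected with the plasmid pcDNA3-mMyb, which carries mouse Myb, and their labels give a low lung metastatic activity. The mock cells were transfected with the plasmid pcDNA3.1 and are labelled normal in lung metastatic activity. The lung3 cells were not transfected, had been passaged 3 times through the lung and are labelled high. The wt cells were neither transfected nor passaged and are labelled normal. All 4 groups are the same cultured line, and the labels do not say whether a transfected or passaged population is a pool or 1 clone, nor whether the 3 libraries of a group come from separate cultures, so the p-values rest on the variation among 3 libraries a group and some of it may be technical.

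NF-kB is a family of dimeric transcription factors held in the cytoplasm by inhibitor proteins of the IkB family. In the canonical arm, receptors of the Toll-like, interleukin 1 and tumour necrosis factor families act through adaptors such as Myd88, Irak and Traf proteins on the IKK complex, which marks IkB for destruction and releases dimers of Rela and the product of Nfkb1. In the noncanonical arm, the kinase encoded by Map3k14, which Traf3 and the Birc proteins normally keep low, drives the processing of the Nfkb2 product and the entry of Relb into the nucleus. Many targets of the pathway are its own brakes, among them Nfkbia, Nfkbie and Tnfaip3, so that the level of such transcripts is commonly read as a record of pathway output in epithelial and tumour cells.

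Promoter sequences of members that moved in the comparisons below are shown here because several hold a match to the kappa B consensus, the DNA element that NF-kB dimers bind. RefSeq windows of 300 bases on GRCm38.p6, from 250 bases before the annotated start to 50 bases after it, were found for 31 of the 40 symbols. The consensus was searched on both strands, and overlapping matches were merged in the printed runs, in which capitals mark the matching bases. Nfkbia lies on the minus strand in the window chr12:55492598-55492897, Tnip1 on the minus strand in chr11:54962891-54963190, Ier3 on the plus strand in chr17:35821463-35821762, Tlr2 on the minus strand in chr3:83841559-83841858, Nfkb2 on the plus strand in chr19:46304487-46304786 and Birc3 on the minus strand in chr9:7873121-7873420.
Nfkbia: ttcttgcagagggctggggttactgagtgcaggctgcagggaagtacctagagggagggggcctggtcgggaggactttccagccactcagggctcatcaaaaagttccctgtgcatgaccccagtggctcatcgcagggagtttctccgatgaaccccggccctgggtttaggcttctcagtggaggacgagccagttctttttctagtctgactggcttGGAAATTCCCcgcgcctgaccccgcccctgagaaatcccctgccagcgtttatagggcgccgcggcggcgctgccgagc
Tnip1: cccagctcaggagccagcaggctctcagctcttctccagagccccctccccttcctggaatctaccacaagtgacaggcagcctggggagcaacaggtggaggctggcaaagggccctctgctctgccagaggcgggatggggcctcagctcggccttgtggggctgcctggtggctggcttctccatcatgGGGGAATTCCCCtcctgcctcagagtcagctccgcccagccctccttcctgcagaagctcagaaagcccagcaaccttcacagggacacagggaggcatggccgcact
Ier3: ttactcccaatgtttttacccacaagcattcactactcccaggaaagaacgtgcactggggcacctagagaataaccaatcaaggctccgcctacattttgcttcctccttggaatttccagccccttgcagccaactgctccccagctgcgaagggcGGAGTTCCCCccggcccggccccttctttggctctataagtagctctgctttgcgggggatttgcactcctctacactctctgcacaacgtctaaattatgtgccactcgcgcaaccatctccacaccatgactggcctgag
Tlr2: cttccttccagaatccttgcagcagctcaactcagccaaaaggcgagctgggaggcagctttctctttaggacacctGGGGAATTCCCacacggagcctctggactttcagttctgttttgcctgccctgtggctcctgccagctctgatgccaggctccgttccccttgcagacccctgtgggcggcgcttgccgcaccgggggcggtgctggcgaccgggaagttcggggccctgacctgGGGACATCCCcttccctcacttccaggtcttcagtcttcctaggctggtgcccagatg
Nfkb2: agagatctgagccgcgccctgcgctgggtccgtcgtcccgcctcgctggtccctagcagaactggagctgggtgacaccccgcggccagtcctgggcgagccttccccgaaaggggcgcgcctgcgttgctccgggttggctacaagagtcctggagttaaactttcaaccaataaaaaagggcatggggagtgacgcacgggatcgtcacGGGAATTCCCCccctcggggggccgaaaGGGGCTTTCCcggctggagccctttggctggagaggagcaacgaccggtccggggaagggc
Birc3: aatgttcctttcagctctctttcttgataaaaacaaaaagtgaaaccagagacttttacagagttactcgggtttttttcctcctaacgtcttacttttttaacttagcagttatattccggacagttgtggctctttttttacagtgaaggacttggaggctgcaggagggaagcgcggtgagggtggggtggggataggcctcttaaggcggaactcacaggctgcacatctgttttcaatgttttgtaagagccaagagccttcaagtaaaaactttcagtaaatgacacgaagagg

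In Nfkbia the matching bases began 29 bases before the start, in Ier3 92 bases before it, and in Tnip1 a run with 3 overlapping matches began 58 bases before it. Tlr2 held matches from 173 and from 8 bases before its start, and the Nfkb2 window shown, the first of those listed for the gene, held them from 39 and from 11 bases before its start. Birc3 held no match to these letters in this window. A match was present for 15 of the 31 members (48.4%), against 9.55% of the 27025 symbols with a window. Of the members higher in lung3, 4 of 7 held one (57.1%), as did 11 of 23 that were tested and not called there (47.8%). Of the members lower in MYBup, 6 of 11 held one (54.5%), as did 9 of 19 of the others (47.4%). By role, 6 of 8 inhibitors, 4 of 7 receptors and adaptors, 2 of 3 subunits, 3 of 9 response genes and 0 of 4 kinases held a match. These are descriptions of letters in a window, not of bound sites.

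Total counts per library lay between 8912989 in lung3 replicate 2 and 24745660 in wt replicate 2, and 11291 genes passed the filter on low counts. A chi-square per gene between libraries of a group, which is near 1 for counting noise alone, lay between 2.29 (MYBup replicates 2 and 3) and 36.9 (mock replicates 2 and 3). MYBup replicate 1 stood at 15.9 and 14.6 from the others of its group and mock replicate 2 at 25.1 from mock replicate 1. Myb stood at 39.3, 42.9 and 39.8 CPM (counts scaled to a common library size) in the MYBup libraries, against 5.17, 4.49 and 6.80 CPM in the mock libraries, the higher level being in the libraries labelled with the Myb plasmid, whose reads and those of the chromosomal gene share a row. The 10 epithelial markers, led by Krt8, summed to 2830 to 2920 CPM in MYBup, 3240 to 3540 in mock, 2720 to 3140 in lung3 and 2830 to 3250 in wt libraries, without overlap between MYBup and mock. The 6 fibroblast markers, led by Pdgfra and with Lum at 0, summed to 38.8 to 48.6 CPM in MYBup, 36.9 to 49 in mock, 15.9 to 22 in lung3 and 21.7 to 30.3 in wt libraries. The part of either list in the results was not tested. Of 12 host leukocyte markers, Adgre1, Cd3e, Tyrobp and Cd52 had 0 counts in all libraries. Their summed level was 8.43 to 8.66 CPM in lung3 and 4.87 to 6.47 CPM in wt libraries, and without Cd68 it was 0.364 to 1.15 and 0.364 to 0.480 CPM. Exons of 12 of the 39 members overlap exons of another annotated gene, 10 of them on the opposite strand, and whether the counting used strand is not given in the sources used here. Among the members named below this concerns Cebpb over 20.7%, Nfkbib over 14.5%, Icam1 over 11.7%, Nfkb2 over 11.6% and Myd88 over 11.3% of the exonic length, and Ikbkg, Tnfaip2, Bcl3, Irak2, Map3k14, Ikbke and Irak1 over 6.5% or less. Their counts are uncertain, and the share of their reads that comes from the other gene was not measured.

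Most of the members called in MYBup against mock were lower in MYBup, and the members called in lung3 against wt were all higher in lung3. Of 38 tested members, 14 fell and 2 rose in MYBup against mock (36.8% and 5.26%), where 12.6% of all tested genes fell and 14.3% rose. In lung3 against wt, 9 of 38 rose and 0 fell (23.7% and 0%), where 2.91% of all tested genes rose and 2.44% fell. The members were chosen with earlier results of these data known, so these shares are descriptive and give no independent support. The falls in MYBup were led by Icam1, Nfkbiz, Map3k8, Ikbke and Birc3, and the rises in lung3 by Ikbke and Nfkbiz. The median log2 fold change over the tested members was -0.14 in MYBup against mock, against 0.00 for all tested genes, and 0.20 in lung3 against wt, against 0.00 for all tested genes. In cultured cells measured in bulk, fewer cells with a transcript and less of it in each cell cannot be told apart. The count in MYBup was 10 without mock replicate 1, 10 without MYBup replicate 1, 9 without MYBup replicate 2 and 10 without MYBup replicate 3, in place of 16, which was also the count without mock replicate 2, and the count in lung3 was 4 without wt replicate 2, in place of 9. Over all tested genes the MYBup count was 3038, and 2158, 2599, 2177, 2046 and 3386 in those runs in that order. The lung3 count over all tested genes was 605, and 268 without wt replicate 2. Whether the members lost calls beyond this general loss was not tested. In a fit of the 6 lung3 and wt libraries alone with the replicate number as a block, 16 of 38 members rose in lung3 and 0 fell, where 8.67% of all genes in that fit rose. The block in the fit of all 12 libraries gave 10 members and the 6 libraries without a block gave 11. Of all genes in these fits, 565 and 649 were called, higher or lower.

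Members listed as pathway components and members listed as inhibitors or response genes were both among those that changed. The roles are not exclusive, since Birc2 and Birc3 are counted as response genes and their products also act on the pathway. Of 21 components, namely subunits, kinases, receptors and adaptors, 7 fell and 2 rose in MYBup against mock, with a median log2 fold change of -0.09. Of 9 inhibitors and feedback regulators 3 fell (median -0.18), and of 8 tested response genes 4 fell (median -0.22). Of all tested genes 12.6% fell and 14.3% rose in this comparison. In lung3 against wt, 4 of 21 components rose (median 0.20), 3 of 9 inhibitors rose (median 0.38) and 2 of 8 response genes rose (median 0.06). Of all tested genes 2.91% rose there. Ikbke, Nfkbia, Nfkbiz and Birc3 were lower in MYBup than in mock and higher in lung3 than in wt, 2 comparisons that share no library. No member was called in the same direction in both of them. Only 2 members were higher in MYBup and 0 were lower in lung3, which left little room for a shared direction. These overlaps were not counted over all tested genes.

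**Figure D1:**
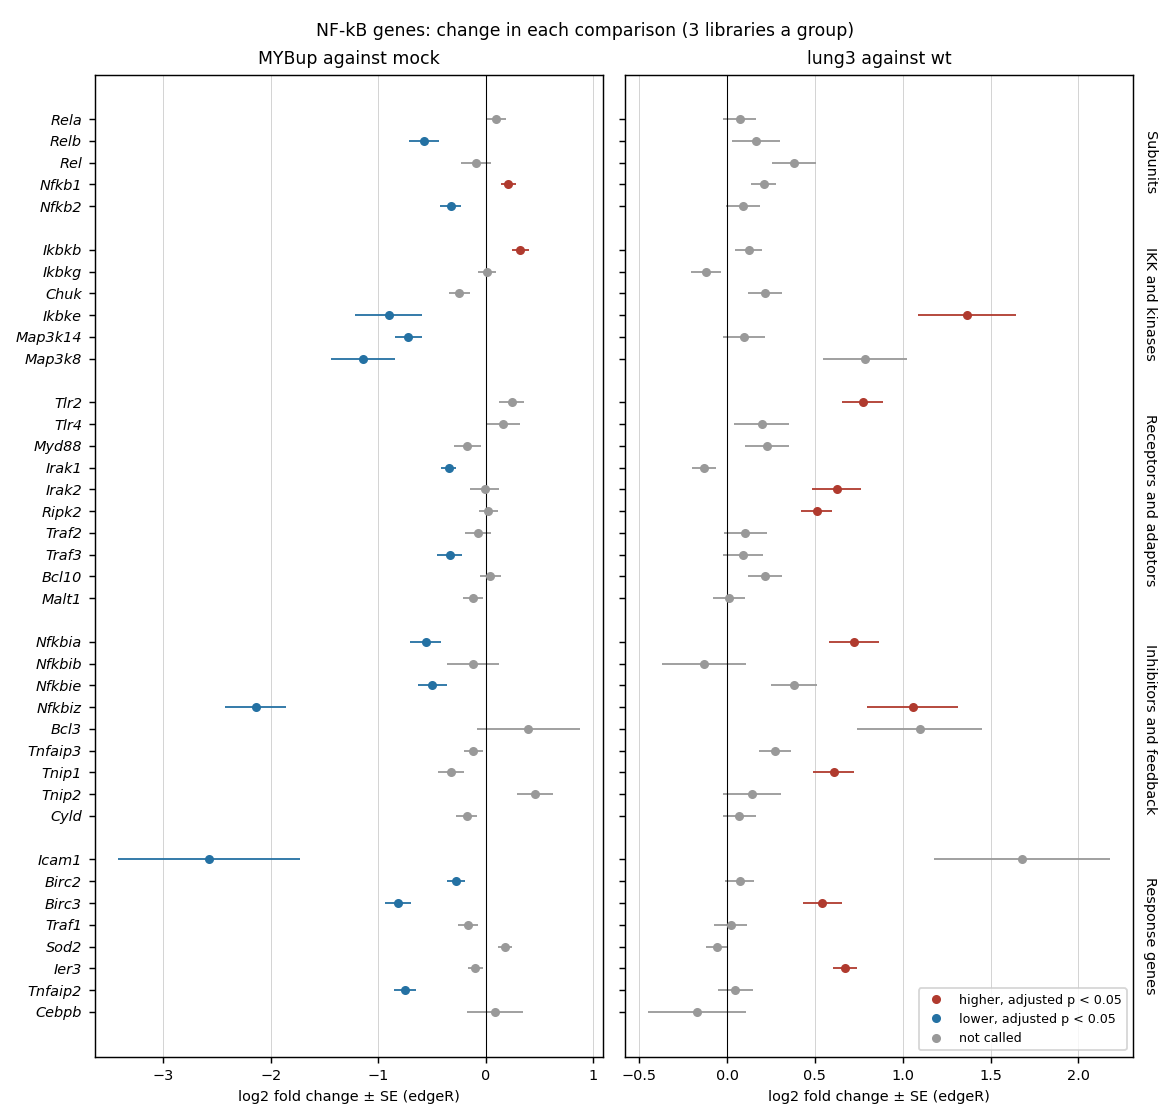
Log2 fold change with its SE for the 38 tested members, by role, in MYBup against mock (left) and lung3 against wt (right), with 3 libraries a group. Points to the left of 0 are lower in MYBup or lung3, and colours mark the calls at an adjusted p under 0.05, 14 lower and 2 higher on the left, 9 higher on the right.

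Of the 5 subunits of the dimers, Relb and Nfkb2 fell and Nfkb1 rose in MYBup against mock, where 12.6% of all tested genes fell and 14.3% rose. Per kilobase of exon, Nfkb2 and Rela were the most abundant and Rel the least in each group, with Nfkb2 at 32.5 ± 1.93, 40.8 ± 5.36, 48.3 ± 4.31 and 45.4 ± 2.84 CPM per kb in MYBup, mock, lung3 and wt cells and Rel at 1.60 ± 0.255, 1.71 ± 0.282, 4.53 ± 0.0921 and 3.48 ± 0.328 CPM per kb in that order (SD, n = 3 each). Rela and Nfkb2 did not differ beyond their spread in MYBup cells, where Rela stood at 31.6 ± 2.80 CPM per kb. Exonic lengths count every annotated exon, so a gene with long unused exons is placed too low.

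Relb, the partner of the processed Nfkb2 product, had 14.3, 15.5 and 15.4 CPM in MYBup libraries, against 19.5, 22.7 and 25.0 CPM in mock libraries. The groups did not overlap, and the log2 fold change was -0.57 (SE 0.14, adjusted p = 0.0082). Nfkb2 had 139, 152 and 156 CPM in MYBup libraries, against 177, 169 and 215 CPM in mock libraries. Its log2 fold change was -0.33 (SE 0.10, adjusted p = 0.0272), mock replicate 3 was the highest of the 6 libraries, and the call ended without that library (log2 fold change -0.21, adjusted p = 0.111) or without MYBup replicate 1, 2 or 3 (adjusted p = 0.0864, 0.0633 and 0.0511). Nfkb1, the gene of the p50 precursor, was higher in MYBup, at 152, 163 and 157 CPM, against 140, 131 and 136 CPM in mock libraries. The rise of 0.21 on the log2 scale (SE 0.07, adjusted p = 0.0419) lost its call without any 1 of the 9 mock, MYBup and wt libraries, with an adjusted p between 0.0556 and 0.14. Rela, the main transactivating subunit, had a log2 fold change of 0.09 (adjusted p = 0.496) and Rel, whose product is best known from lymphocytes, -0.09 (adjusted p = 0.678).

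In lung3 against wt the log2 fold changes of the 5 subunits lay between 0.07 (Rela) and 0.38 (Rel), and 0 of the 5 were called. Of all tested genes 2.91% rose and 2.44% fell there. Rel had 34.4, 33.9 and 33.1 CPM in lung3 libraries, against 25.5, 23.8 and 28.6 CPM in wt libraries. The groups did not overlap, and the adjusted p was 0.098. It was 0.0825 with the block on 12 libraries, 0.0415 with the 6 libraries alone and 0.0074 with the block on those 6. Nfkb1 was called under the block on 6 libraries (adjusted p = 0.0467) and not under the block on 12 (0.133). Rel set the transfected lines apart more than any other subunit. It was lower in both MYBup (log2 fold change -1.11, SE 0.13, adjusted p = 4.97e-05) and mock cells (-1.02, SE 0.13, adjusted p = 9.12e-05) than in wt cells.

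**Figure D2:**
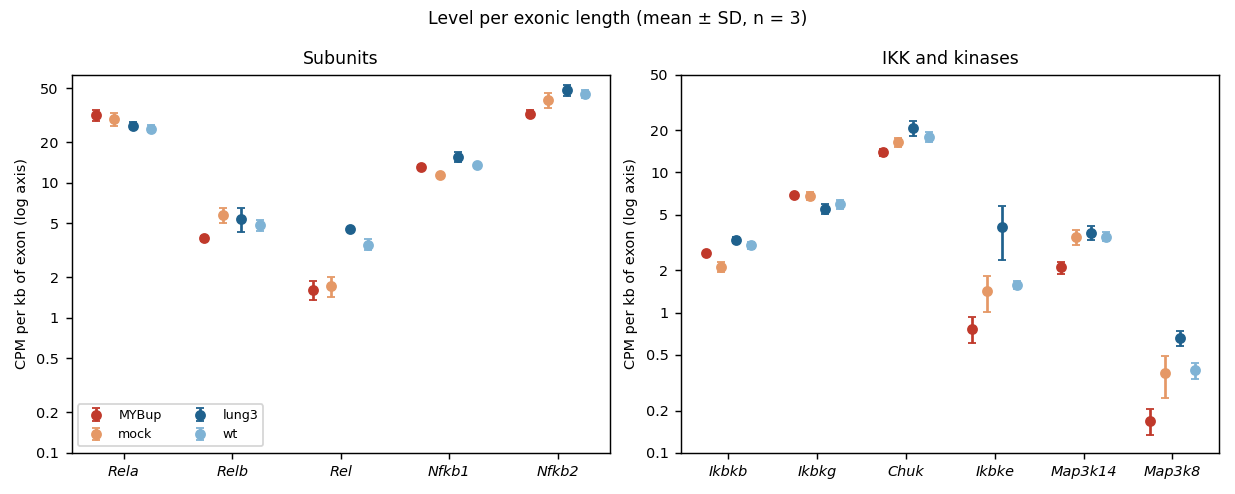
Level per exonic length (mean ± SD, n = 3, CPM per kb, log axis) of the subunits (left) and of the IKK and upstream kinase genes (right) in MYBup, mock, lung3 and wt cells. Rel is low in both transfected lines, and Ikbke and Map3k8 are lowest in MYBup and highest in lung3.

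Among the 6 kinase genes, Ikbke, Map3k14 and Map3k8 fell and Ikbkb rose in MYBup against mock. Of all tested genes 12.6% fell and 14.3% rose in this comparison. Ikbke encodes the IKK-related kinase IKK epsilon. It had 8.39, 5.54 and 6.77 CPM in MYBup libraries, against 14.9, 15.0 and 8.56 CPM in mock libraries, with mock replicate 3 close to the MYBup libraries. The log2 fold change was -0.90 (SE 0.31, adjusted p = 0.0483), and the call ended without mock replicate 1 or 2, any of the 3 MYBup or 3 wt libraries or lung3 replicate 2 (adjusted p between 0.0505 and 0.158) and under limma voom (adjusted p = 0.108). In lung3 libraries Ikbke had 47.1, 44.0 and 19.3 CPM, against 15.3, 13.7 and 13.6 CPM in wt libraries. All lung3 libraries lay above all wt libraries, replicate 3 by the least, and the log2 fold change was 1.36 (SE 0.28, adjusted p = 0.013). This call did not survive leaving out wt replicate 2 or lung3 replicate 1 or 2 (adjusted p = 0.0549, 0.0545 and 0.0615).

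Map3k14, the gene of NIK, the kinase that starts the noncanonical arm, had 12.1, 14.5 and 14.6 CPM in MYBup libraries, against 21.7, 20.4 and 26.0 CPM in mock libraries. Its log2 fold change was -0.72 (SE 0.12, adjusted p = 0.00093), a call kept without each of the 12 libraries in turn. It was nearly level in lung3 against wt (0.10 on the log2 scale, adjusted p = 0.709). Map3k8, which encodes a kinase bound by the Nfkb1 product and active downstream of Toll-like receptors, was scarce, with 0.896, 0.591 and 0.800 CPM in MYBup libraries, against 2.23, 1.64 and 1.11 CPM in mock libraries. The log2 fold change was -1.14 (SE 0.30, adjusted p = 0.0125), and the call ended without mock replicate 1 or MYBup replicate 2 (adjusted p = 0.0798 and 0.0573). In lung3 libraries Map3k8 had 3.20, 2.54 and 3.19 CPM, against 2.00, 1.69 and 1.53 CPM in wt libraries. These groups did not overlap either, with an adjusted p of 0.0757, or 0.0276 with the block on 6 libraries and 0.068 with the block on 12.

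Ikbkb, the gene of the catalytic kinase IKK beta, rose in MYBup against mock. It had 50.7, 51.8 and 50.1 CPM in MYBup libraries, against 43.9, 37.4 and 40.6 CPM in mock libraries (log2 fold change 0.32, SE 0.08, adjusted p = 0.00978). The mock line was the low one here, since wt cells stood at 57.7 ± 3.40 CPM and MYBup was not called against wt (-0.18, adjusted p = 0.0862). Chuk, the gene of IKK alpha, had a value of -0.25 on the log2 scale in MYBup against mock (adjusted p = 0.0784) and 0.22 in lung3 against wt (adjusted p = 0.215), and Ikbkg, the gene of the regulatory subunit NEMO, had 0.02 and -0.12 (adjusted p = 0.904 and 0.46). The Chuk call in MYBup against mock appeared without mock replicate 2 (adjusted p = 0.0322) or lung3 replicate 2 (adjusted p = 0.0491).

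**Figure D3:**
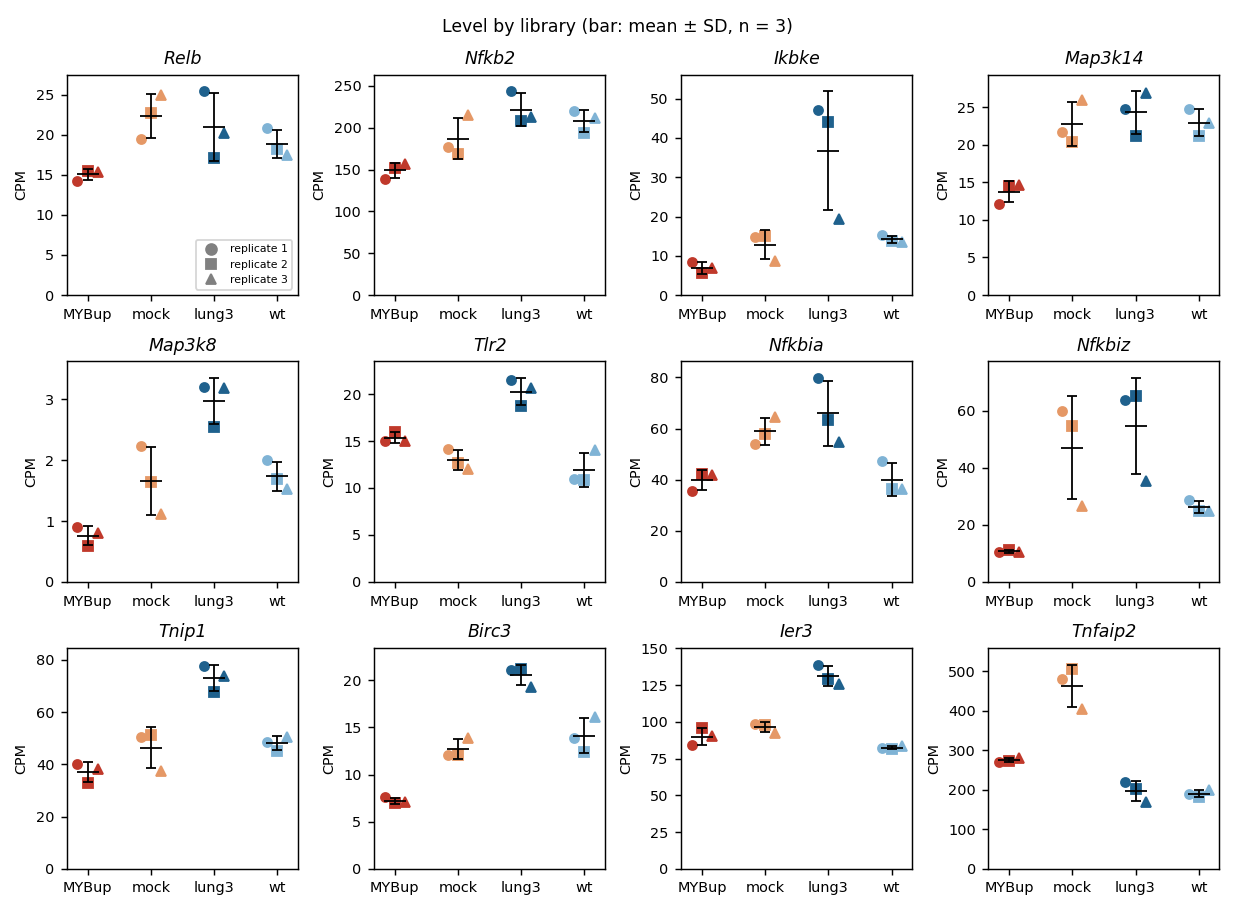
CPM of 12 members in each library, with the mean ± SD of 3 libraries a group. Nfkbiz is at 10.3 to 11.2 CPM in the 3 MYBup libraries, Ikbke and Nfkbiz differ between replicates 1 and 2 and replicate 3 of mock and of lung3, and Tnfaip2 is highest in mock.

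Of 10 receptors and adaptors, 2 fell in MYBup against mock and 3 rose in lung3 against wt. Of all tested genes 12.6% fell in MYBup against mock and 2.91% rose in lung3 against wt. Tlr2, the receptor of bacterial lipoproteins, had 21.5, 18.7 and 20.6 CPM in lung3 libraries, against 11, 10.8 and 14 CPM in wt libraries. The log2 fold change was 0.77 (SE 0.12, adjusted p = 0.00243). Ripk2, the kinase that relays signals from NOD receptors, had 38.7, 38.2 and 36.2 CPM in lung3 libraries, against 27.9, 23.4 and 28.2 CPM in wt libraries. Its log2 fold change was 0.51 (SE 0.09, adjusted p = 0.00621), and the calls of Tlr2 and Ripk2 were kept without each of the 12 libraries in turn. Irak2, a kinase-like adaptor of the interleukin 1 and Toll-like receptors, had 11.8, 13.0 and 12.3 CPM in lung3 libraries, against 6.91, 7.64 and 9.49 CPM in wt libraries (log2 fold change 0.62, SE 0.14, adjusted p = 0.0189). The groups of these 3 genes did not overlap, although the Irak2 call ended without wt replicate 1 or 2 or lung3 replicate 2 or 3 (adjusted p = 0.0953, 0.0763, 0.0669 and 0.0502). In MYBup against mock the log2 fold changes of Tlr2, Ripk2 and Irak2 were 0.24, 0.03 and -0.01 (adjusted p = 0.147, 0.866 and 0.981). Since Tlr2 is also a leukocyte gene, the leukocyte marker sums given above bear on it, and their part in its rise was not tested.

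Irak1, the serine kinase that Myd88 brings to the receptor, had 114, 112 and 113 CPM in MYBup libraries, against 153, 142 and 137 CPM in mock libraries. Its log2 fold change was -0.35 (SE 0.07, adjusted p = 0.00208), a call kept without each library in turn. Traf3, the adaptor that keeps NIK low, had 88.7, 114 and 103 CPM in MYBup libraries, against 131, 106 and 148 CPM in mock libraries. The groups overlapped and the call was narrow (log2 fold change -0.33, SE 0.11, adjusted p = 0.0449). It ended without any of 10 of the 12 libraries, all but mock replicate 2 and MYBup replicate 2, with an adjusted p between 0.0509 and 0.178, and the fold change was -0.22 without mock replicate 3. The remaining adaptors and receptors, Tlr4 (the endotoxin receptor), Myd88, Traf2, Bcl10 and Malt1 (partners in the complex that relays antigen receptor signals), had log2 differences of 0.16, -0.17, -0.07, 0.04 and -0.12 in MYBup against mock and of 0.20, 0.23, 0.10, 0.22 and 0.01 in lung3 against wt, and 0 of these 10 values passed the test.

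Of the inhibitors and feedback regulators, 3 of 9 fell in MYBup and 3 of 9 rose in lung3. Over all tested genes 12.6% fell and 2.91% rose in these comparisons. Nfkbiz encodes a nuclear IkB protein that switches on secondary response genes such as Lcn2 and Il6. It had 10.3, 11.2 and 10.5 CPM in MYBup libraries, against 60, 54.5 and 26.6 CPM in mock libraries. The lowest mock library was above the highest MYBup library, and the log2 fold change was -2.14 (SE 0.28, adjusted p = 0.000143). In lung3 libraries Nfkbiz had 63.6, 65.1 and 35.3 CPM, against 28.6, 24.9 and 24.9 CPM in wt libraries, higher by 1.06 on the log2 scale (SE 0.26, adjusted p = 0.0323). Replicate 3 was the lowest in both mock and lung3. The rise in lung3 lost its call without wt replicate 1, 2 or 3 (adjusted p = 0.0898, 0.107 and 0.0732), without lung3 replicate 1 or 2 (0.0959 and 0.131) and under limma voom (0.0549), while the fall in MYBup kept its call without each of the 12 libraries in turn. Without mock replicate 3 and lung3 replicate 3 together, the log2 fold changes were -2.42 in MYBup against mock and 1.30 in lung3 against wt.

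Nfkbia, the gene of IkB alpha and a classical early target, had 35.5, 42.1 and 42.0 CPM in MYBup libraries, against 53.9, 58.0 and 64.7 CPM in mock libraries (log2 fold change -0.56, SE 0.14, adjusted p = 0.0113). In lung3 libraries it had 79.9, 63.2 and 54.8 CPM, against 47.4, 36.5 and 36.3 CPM in wt libraries (log2 fold change 0.72, SE 0.14, adjusted p = 0.011). Neither pair of groups overlapped, and the rise in lung3 was not called once wt replicate 2 was left out (adjusted p = 0.0545). The printed Nfkbia promoter holds 1 run of kappa B letters near its start. Tnip1, a partner of A20 that binds ubiquitin chains, had 77.8, 67.9 and 73.8 CPM in lung3 libraries, against 48.7, 45.2 and 50.6 CPM in wt libraries. The log2 fold change was 0.61 (SE 0.12, adjusted p = 0.0094), kept without each of the 12 libraries in turn. In MYBup against mock Tnip1 had -0.32 (adjusted p = 0.0591), and it was called there by DESeq2 (adjusted p = 0.0413), without the filter on low counts (0.0494) and without mock replicate 3 (log2 fold change -0.45, adjusted p = 0.00597).

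Nfkbie, the gene of IkB epsilon, had 18.0, 13.8 and 16.9 CPM in MYBup libraries, against 20.9, 21.5 and 26.4 CPM in mock libraries. The log2 fold change was -0.50 (SE 0.13, adjusted p = 0.015), and the call ended without mock replicate 3 or MYBup replicate 2 (adjusted p = 0.0568 and 0.0701). In lung3 against wt Nfkbie had 0.38 (adjusted p = 0.108, or 0.0129 with the block on 6 libraries and 0.0743 with the block on 12). Tnfaip3, the gene of the ubiquitin-editing brake A20, was abundant and nearly level in MYBup against mock (-0.11, adjusted p = 0.382). It had 196, 216 and 212 CPM in lung3 libraries, against 170, 178 and 169 CPM in wt libraries. The groups did not overlap, at a log2 fold change of 0.27 with an adjusted p of 0.0947. It was 0.102 with the block on 12 libraries, 0.0419 with the 6 libraries alone and 0.00688 with the block on those 6. Bcl3, a nuclear IkB protein, was scarce, with 2.04, 1.62 and 1.39 CPM in lung3 libraries, against 0.773, 0.413 and 1.20 CPM in wt libraries (log2 fold change 1.10, adjusted p = 0.0922, or 0.0467 with the block on 6 libraries and 0.0983 with the block on 12). Nfkbib (IkB beta), Tnip2 and the deubiquitinase gene Cyld had log2 differences of -0.12, 0.46 and -0.18 in MYBup against mock and of -0.13, 0.14 and 0.07 in lung3 against wt, and 0 of the 6 values passed the test.

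**Figure D4:**
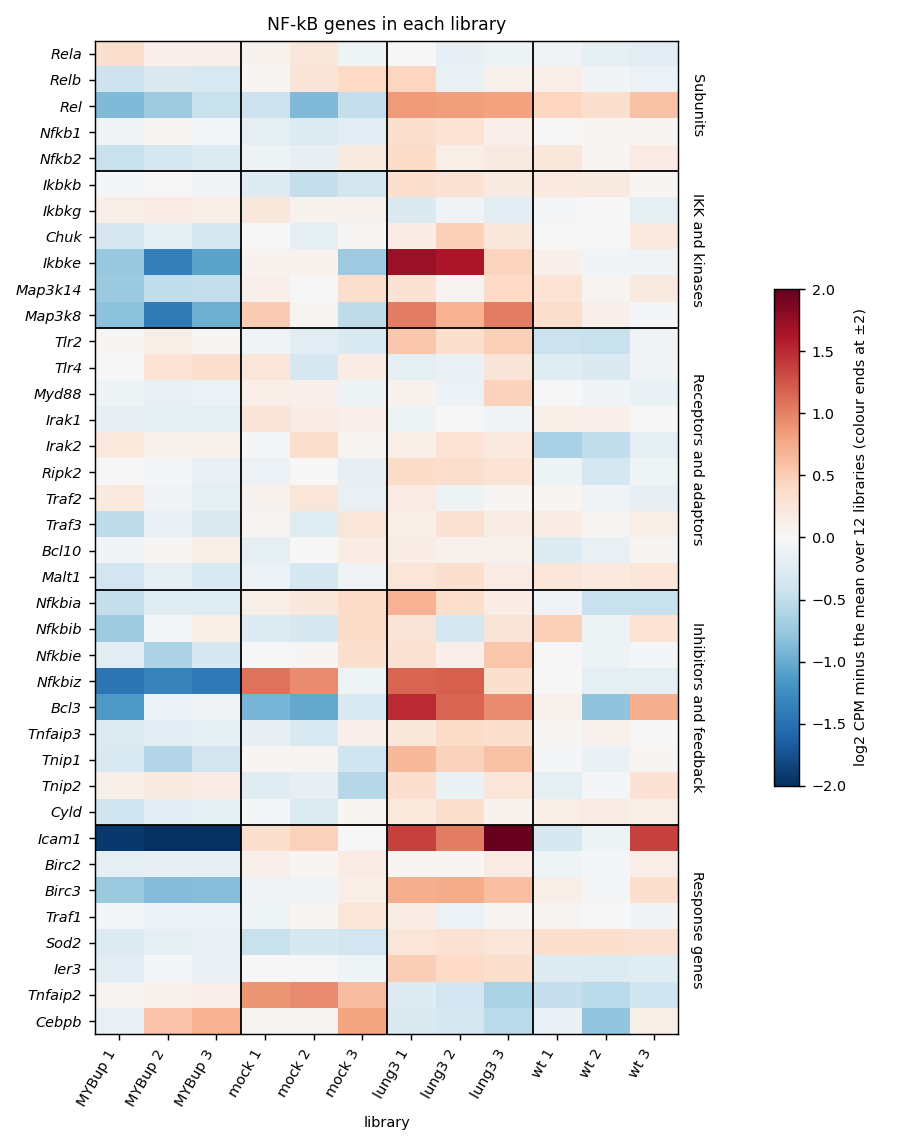
Log2 CPM of the 38 tested members in each of the 12 libraries, minus the member's mean over all of them, with colours ending at ±2. Nfkbiz, Icam1, Ikbke and Map3k8 are low in the 3 MYBup libraries and high in lung3, Sod2 and Rel are low in both transfected lines, and Icam1 is also high in wt replicate 3.

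Of the response genes, Icam1 had the largest fold changes and, of those tested, the lowest counts. Icam1 encodes an adhesion ligand of leukocyte integrins. It had 0.326, 0.148 and 0.267 CPM in MYBup libraries, 4, 2 and 5 counts, against 1.57, 1.71 and 1.24 CPM in mock libraries, and the log2 fold change was -2.57 (SE 0.85, adjusted p = 0.0384). The call ended without any 1 of the 6 MYBup and mock libraries (adjusted p between 0.0513 and 0.104) and under limma voom (0.055). In lung3 libraries Icam1 had 3.20, 2.54 and 10.7 CPM, against 1.00, 1.16 and 3.21 CPM in wt libraries. Replicate 3 was the highest in both groups, the groups overlapped, and the log2 fold change of 1.68 (SE 0.50) had an adjusted p of 0.0702. Icam1 was called in lung3 with the block on 6 libraries (log2 fold change 1.58, adjusted p = 7.38e-05), with the block on 12 (1.59, 0.0298), with DESeq2 (0.0352), without the low-count filter (0.0234) and without wt replicate 3 (2.39, 0.0183). Without lung3 replicate 3 the log2 fold change was 0.72 (adjusted p = 0.403). Tnf, the gene of the cytokine, was not tested, since it had 20 counts in all, 3 in MYBup, 3 in mock, 9 in lung3 and 5 in wt libraries.

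Birc3, the gene of the ubiquitin ligase cIAP2, had 7.58, 7.02 and 7.04 CPM in MYBup libraries, against 12.1, 12.1 and 13.9 CPM in mock libraries. Its log2 fold change was -0.82 (SE 0.12, adjusted p = 0.000305), kept without each library in turn. In lung3 libraries Birc3 had 21.1, 21.2 and 19.3 CPM, against 13.9, 12.4 and 16.1 CPM in wt libraries (log2 fold change 0.54, SE 0.11, adjusted p = 0.0125). All 3 lung3 libraries lay above the wt libraries, and the call ended without wt replicate 1 or 2 (adjusted p = 0.0585 and 0.0644). Its neighbour Birc2, which encodes cIAP1, had 21.8, 22.2 and 22.2 CPM in MYBup libraries, against 26.8, 25.6 and 27.8 CPM in mock libraries. This smaller difference (log2 fold change -0.28, SE 0.08, adjusted p = 0.0254) lost its call without mock replicate 1 or 3 or any of the 3 MYBup libraries (adjusted p between 0.0614 and 0.0768), and in lung3 against wt Birc2 had 0.07 (adjusted p = 0.68).

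Ier3, an early response gene that modulates cell survival, rose in lung3 and was not called in MYBup. It had 139, 129 and 126 CPM in lung3 libraries, against 82.2, 81.5 and 83.5 CPM in wt libraries. The log2 fold change was 0.67 (SE 0.07, adjusted p = 0.000217), the smallest p of the 38 members in this comparison, and the call was kept without each library in turn. In MYBup against mock Ier3 had -0.10 (adjusted p = 0.328). Tnfaip2, a gene induced by tumour necrosis factor, had 271, 274 and 281 CPM in MYBup libraries, against 481, 506 and 404 CPM in mock libraries (log2 fold change -0.75, SE 0.10, adjusted p = 0.000144). Its level was set apart by the mock line, as described next. Traf1, Sod2 (the mitochondrial superoxide dismutase gene) and Cebpb, a transcription factor gene of inflammation, had log2 differences of -0.17, 0.18 and 0.09 in MYBup against mock and of 0.02, -0.06 and -0.17 in lung3 against wt, and 0 of the 6 values passed the test.

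The mock line itself differed from wt cells in 10 of 38 members, 5 higher and 5 lower (13.2% each), where 18.0% of all tested genes rose and 17.9% fell. Tnfaip2 stood at 275 ± 4.84 CPM in MYBup, 464 ± 53.1 CPM in mock and 190 ± 9.35 CPM in wt cells (SD, n = 3 each). It was therefore higher than wt in mock (log2 fold change 1.28, SE 0.10, adjusted p = 2.42e-06) and in MYBup cells (0.53, SE 0.10, adjusted p = 0.0012). Nfkbia was also higher in mock than in wt (0.55, SE 0.14, adjusted p = 0.00827), and it had 39.9 ± 3.77 CPM in MYBup and 40.1 ± 6.40 CPM in wt cells, a difference of -0.00 on the log2 scale (SE 0.14, adjusted p = 0.983). Nfkbiz was higher in mock (0.85, adjusted p = 0.0207) but lower in MYBup than in wt (-1.29, SE 0.28, adjusted p = 0.00333). The call of Nfkbiz in mock ended without mock replicate 1 or 2 or wt replicate 2 or 3, with an adjusted p between 0.0535 and 0.105. Irak2 was higher than wt in mock (0.56, adjusted p = 0.00606) and in MYBup (0.55, adjusted p = 0.00665), and Ier3 in mock (0.23, adjusted p = 0.0222), where its call ended without mock replicate 1 or wt replicate 1 or 2 (adjusted p up to 0.0692). Sod2 was lower in both lines, with 61.8 ± 2.61 CPM for MYBup and 54.6 ± 2.16 CPM for mock, against 88.8 ± 0.589 CPM in wt cells. Rel, Nfkb1, Ikbkb and Malt1 were the other members lower in mock than in wt, with log2 fold changes of -1.02, -0.25, -0.50 and -0.40, and the call of Nfkb1 ended without wt replicate 2 (adjusted p = 0.0523).

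Set against wt in place of mock, 16 members were lower and 4 higher in MYBup (42.1% and 10.5% of 38), where 18.7% of all tested genes fell and 19.4% rose. This comparison has its MYBup libraries in common with the one against mock and its wt libraries in common with lung3 against wt, so the values are given side by side. Birc3 had -0.97 against wt and -0.82 against mock, Map3k14 -0.73 and -0.72, Map3k8 -1.19 and -1.14, Ikbke -1.05 and -0.90, Icam1 -2.80 and -2.57, Nfkb2 -0.48 and -0.33 and Irak1 -0.25 and -0.35. Traf3 had -0.40 and -0.33. Relb, Nfkbie and Birc2 had -0.32, -0.33 and -0.18 against wt (adjusted p = 0.079, 0.0634 and 0.0984), and in mock against wt they had 0.25, 0.16 and 0.10 (adjusted p = 0.167, 0.346 and 0.378). Besides Nfkbiz and the genes named with both values up to Traf3, the members lower in MYBup than in wt were Rel, Sod2, Malt1, Cyld, Chuk, Tnip1 and Tnfaip3. Rela, Tlr2, Irak2 and Tnfaip2 were the 4 higher ones. The calls against wt of Icam1, Ikbke, Chuk, Traf3, Tnip1, Tnfaip3, Rela and Tlr2 ended without some of the libraries, with an adjusted p between 0.05 and 0.109. The libraries were MYBup replicates 2 and 3 and wt replicate 3 for Icam1, MYBup replicates 2 and 3 for Ikbke, wt replicate 3 for Chuk, MYBup replicate 1 for Traf3 and for Rela, MYBup replicate 2 and wt replicates 1 and 3 for Tnip1, all 6 for Tnfaip3, and MYBup replicates 2 and 3 and wt replicates 1 and 2 for Tlr2.

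**Figure D5:**
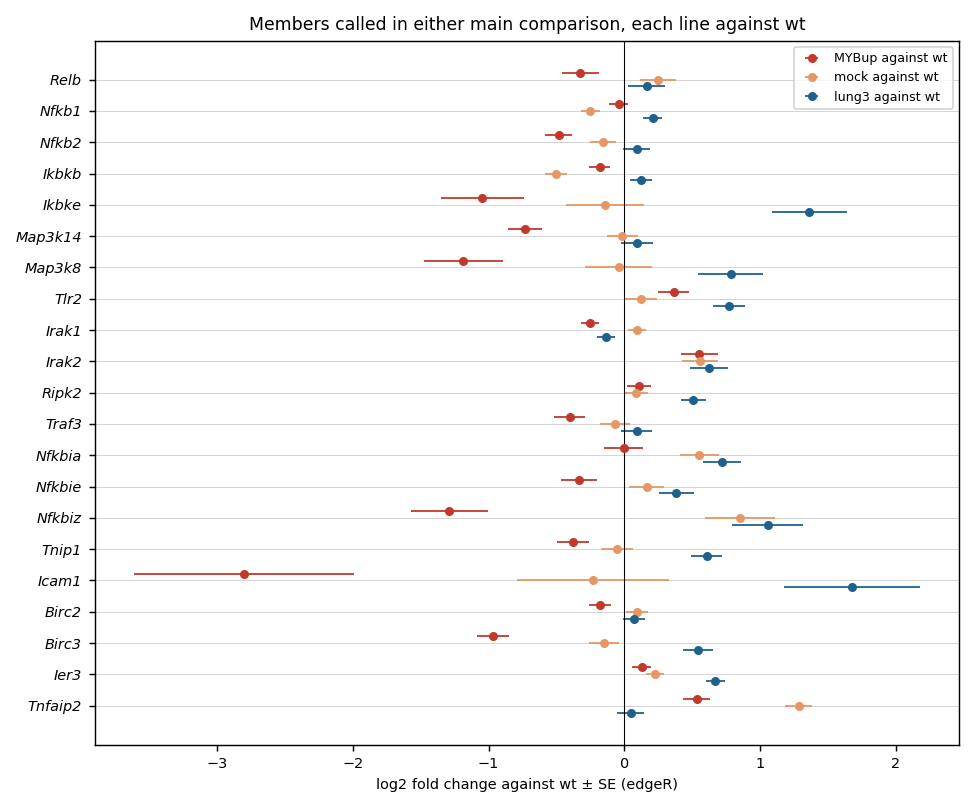
Log2 fold change with its SE against wt cells for MYBup, mock and lung3, for the 21 members called in MYBup against mock or in lung3 against wt. Nfkbia and Tnfaip2 are above wt in mock, Map3k14, Birc3 and Icam1 are below wt in MYBup, and the 3 comparisons share the wt libraries.

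The effects in the 2 main comparisons were set against each other in 1 test, as the log2 fold change of lung3 against wt minus that of MYBup against mock. Of 38 members 17 differed (44.7%), all with the larger value in lung3 against wt, where 19.9% of all tested genes differed in either direction. The largest differences were those of Icam1 (4.25, SE 0.97, adjusted p = 0.00844), Nfkbiz (3.20, SE 0.39, adjusted p = 0.000144), Ikbke (2.27, SE 0.42, adjusted p = 0.00245) and Map3k8 (1.93, SE 0.38, adjusted p = 0.00385). By listed role, the 17 were 8 of 21 components, 5 of 9 inhibitors and 4 of 8 response genes. Birc3, Nfkbia and Tnip1, with 1.36, 1.28 and 0.93, had adjusted p-values of 0.000139, 0.000887 and 0.002. Nfkb1 and Rela, both abundant subunits, had differences of -0.00 and -0.02 (SE 0.10 and 0.13).

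Genes of the pathway outside the 40 were taken from 2 further lists, chosen, like the members, with earlier results of these data known. Of 42 tested other components, such as receptors, ubiquitin ligases and scaffold proteins, 10 rose and 6 fell in MYBup against mock (median log2 fold change 0.04), where 14.3% of all tested genes rose and 12.6% fell, and 2 rose and 0 fell in lung3 against wt (median 0.01), where 2.91% rose and 2.44% fell. Tab3, which links the kinase TAK1 to ubiquitin chains, averaged 35.3 ± 5.19 CPM in the MYBup line, against 88.6 ± 11.1 CPM in the mock line (log2 fold change of -1.33, SE 0.13, adjusted p = 1.65e-05). Il1rap, the accessory chain of the interleukin 1 receptor, had -0.78 (adjusted p = 0.000564). Rnf31, the catalytic subunit of the linear ubiquitin ligase, rose by 0.76 (adjusted p = 0.00115) and Tirap, the adaptor that brings Myd88 to Toll-like receptors, by 0.50 (adjusted p = 0.0073). Ripk1, the kinase of the tumour necrosis factor receptor complex, was at 44.7 ± 1.75 CPM in lung3 and 36.4 ± 1.56 CPM in wt cells (log2 fold change 0.29, adjusted p = 0.0465). Of 34 tested other response genes, mainly chemokines, cytokines and secreted defence proteins, 2 rose and 17 fell in MYBup against mock (median -0.55), and 16 rose and 0 fell in lung3 against wt (median 0.60), against the same shares of all tested genes. Among the called genes of this list whose mean log2 CPM reached 3, Il1a, Ccl2, Lcn2 and Cxcl5 had the largest changes in both comparisons. They had -6.68, -6.63, -4.97 and -4.05 in MYBup against mock (SE 0.91, 1.35, 0.92 and 0.64) and 2.99, 4.53, 3.89 and 4.06 in lung3 against wt. In MYBup cells Il1a, Ccl2 and Lcn2 were near the floor, at 0.611 ± 0.195, 0.0518 ± 0.045 and 0.675 ± 0.174 CPM, so the sizes of these falls are uncertain. The spread of these genes between libraries was wide, as for Lcn2 at 20.6 ± 15.9 CPM in mock cells. Il1a stood at 218 ± 125 CPM in lung3 and 27.3 ± 4.54 CPM in wt cells.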

How the data were processed

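RNA-seq of 4T1 cells gave whole-number gene counts, deposited as 1 table of 12 libraries, in which values above 4 digits are rounded to 4 significant digits. The tools named in the submitters' processing notes are STAR and edgeR, with the build GRCm38. For their versions, the counter, its annotation and strand, no value is given in the sources used here. Ensembl identifiers were given symbols and exonic lengths from GENCODE M21, with 22570 of 22880 features matched. Cebpd was not analysed here.

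Genes were filtered with filterByExpr and scaled with TMM in edgeR 4.0.16 (R 4.3.3), and CPM values use these scaled library sizes. A quasi-likelihood F test in 1 fit of all 12 libraries, with a term per group, gave two-sided p-values, adjusted by the Benjamini-Hochberg method over 11291 genes, with a threshold of 0.05. Each SE was obtained from the size of the log2 fold change over the root of its F statistic. The steps were tested on simulated data. Alternatives were DESeq2 1.42.0, limma 3.58.1 voom, other scaling, no filter, the 6 libraries compared, a replicate block, stricter thresholds and leaving out each library. Leaving out mock replicate 3 and lung3 replicate 3 together was chosen after seeing the data. Total counts limit precision for scarce genes such as Tnf, Bcl3, Map3k8 and Icam1.

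The members and the wider gene lists were chosen with earlier results of these data known. All members are accounted for, with values by library for those called in MYBup against mock or lung3 against wt. From each wider list, up to 4 called genes per main comparison were named, those with the largest absolute change among genes whose mean log2 CPM reached 3. Same-numbered lung3 and wt libraries deviated together from their group means (correlations 0.329, 0.294 and 0.309), although the labels state no pairing, so values with the replicate block are given beside results of this comparison that it changes.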

Additional observations from a re-analysis of the deposited data

Results flagged for a closer look

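For 17 of 38 members the effect in lung3 against wt differed from that in MYBup against mock, by a test of the difference itself (edgeR, adjusted p under 0.05). Of all tested genes 19.9% differed in either direction. The values are the log2 fold change of lung3 against wt minus that of MYBup against mock. Icam1 (4.25), Nfkbiz (3.20), Ikbke (2.27), Map3k8 (1.93), Birc3 (1.36), Nfkbia (1.28), Tnip1 (0.93), Nfkbie (0.88), Map3k14 (0.81), Tnfaip2 (0.80), Ier3 (0.77) and Relb (0.74) kept this call without each of the 12 libraries in turn. Irak2 (0.63), Tlr2 (0.53), Ripk2 (0.49), Chuk (0.46) and Tnfaip3 (0.39) lost it without at least 1 library, Ripk2 only without MYBup replicate 3 (adjusted p = 0.0534). No test for a library far from the others was run in these groups of 3.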

How the results depend on the processing

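No member changed direction under any alternative run while called. The medians of components, inhibitors and response genes kept their sign under the alternatives in the 2 main comparisons. Other role medians and other comparisons were not run in this way. In MYBup against mock, 16 members were called. With the replicate block on the 6 libraries 8 were called, at an adjusted p under 0.01 there were 7, at a change of at least 1.5-fold 7, and without each library in turn 9 to 16. The replicate numbers did not pair the MYBup and mock libraries (correlations -0.191, -0.496 and 0.382), so the block is given here only. Libraries with unlike numbers had correlations from -0.541 (MYBup replicate 1 with mock replicate 3) to 0.636 (MYBup replicate 1 with mock replicate 2). Deviations shared across numbers were therefore present, and their source was not tested. Over all tested genes, in either direction, there were 3038 calls, 1479 with that block and 2046 to 3386 without each library. Such counts were not made at the stricter thresholds, here or below. In lung3 against wt, 9 were called, 16 with the replicate block on the 6 libraries, 10 with it on all 12, 11 with the 6 libraries and no block, 4 at an adjusted p under 0.01 and 4 to 11 without each library in turn. Over all tested genes there were 605, 1985 with the block on 6 and 565 with it on 12. The 6 libraries with no block gave 649, and runs without each library 237 to 853. In mock against wt, 10 were called, 4 at a change of at least 1.5-fold and 8 to 14 without each library. Over all tested genes there were 4056, and 3084 to 4127 without each library. In MYBup against wt, 20 were called, 13 at an adjusted p under 0.01, 7 at a change of at least 1.5-fold and 15 to 23 without each library. Over all tested genes there were 4308, and 3256 to 4881 without each library. For the difference of the 2 main comparisons, 17 were called, 11 at an adjusted p under 0.01 and 12 to 20 without each library. Over all tested genes there were 2252, and 1535 to 2500 without each library. Without mock replicate 3 and lung3 replicate 3 together the counts were 13, 8, 14, 23 and 13 in that order. Over all tested genes they were then 2759, 520, 3924, 4442 and 2120. DESeq2 gave 18, 11, 11, 23 and 18, and limma voom 14, 8, 10, 22 and 16. Over all tested genes DESeq2 gave 3240, 919, 4124, 4370 and 2430, and limma voom 3057, 617, 4167, 4385 and 2251. The cause of these changes was not tested. Depth limits the scarce members Tnf, Bcl3, Map3k8 and Icam1.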
